A study of Danio rerio with 6 samples.

Results

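The Rev-erb genes (nr1d) and bhlhe40 encode transcriptional repressors of the circadian clock, and 5 of them, out of 25640 genes in the count table, are described here in livers of wild-type and lf:Yap zebrafish (Danio rerio). They were chosen by Ensembl gene ID with the WT against lf:Yap values already known. Their levels in that contrast are therefore a description, and no test of the members is read as a result. The study asks, by its title, how the transcriptional coactivator Yap acts on glutamine metabolism and nucleotide synthesis during liver growth. It sequenced polyadenylated RNA from livers of adult fish in 6 libraries, 3 labelled WT and 3 labelled lf:Yap. The labels give no transgene dose, sex, exact age or hour of dissection, and do not tell if a library came from 1 fish or from a pool. In the study's published description, though not in the labels, the liver fatty acid binding protein promoter drives Yap in hepatocytes, so the transgene marks hepatocytes while the libraries hold the whole dissected organ.

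Rev-erb proteins are nuclear receptors that bind heme, sit on elements they share with the ROR activators, and recruit the NCoR and HDAC3 corepressor complex. In mammalian liver they hold down Bmal1 and other clock genes in a daily rhythm and repress genes of glucose and lipid metabolism. Bhlhe40, also called Dec1, is a basic helix-loop-helix repressor that competes with Clock and Bmal1 dimers at E-boxes and responds to hypoxia in mammals. Zebrafish have a set of nr1d genes larger than the mammalian pair, and organs of zebrafish hold clocks that respond to light directly.

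All libraries were deep, with 71581315 to 87543545 gene counts each. Levels are given as CPM (counts per 1000000 counts of the library), adjusted with TMM factors, which correct for the make-up of a library. The YAP1 gene itself stood at 20.4 to 27.4 CPM in WT and 291 to 443 CPM in lf:Yap, in the direction of the labels. The 8 hepatocyte marker genes summed to 62199 to 66085 CPM in WT and 75269 to 98678 CPM in lf:Yap, and none of them was at 0 in any library. Of these 8, 5 had log2 differences above 0 and 3 below. The most abundant were tfa, apoa2 and fabp10a, with WT means of 22357, 16197 and 8770 CPM. Their lf:Yap means were higher, at 37459, 23125 and 13199 CPM. FGB was lower in lf:Yap without overlap, with a mean of 5832 CPM against 7368 CPM in WT. The higher sum therefore does not stand for every hepatocyte marker. In bulk tissue, fewer cells of a type and less RNA per cell cannot be told apart.

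The members differed between the groups in both directions. nr1d2a was about 7-fold higher in lf:Yap and nr1d1 about 2-fold higher, while nr1d4b and bhlhe40 were more than 6-fold lower and the second nr1d2 gene was modestly lower. For each of the 5 members the 3 WT libraries did not overlap the 3 lf:Yap libraries, a pattern that 17.6% of the 24674 tested genes showed. All 5 passed the filter on low counts. In edgeR's quasi-likelihood fit over all tested genes, 3 of the 5 lay under an adjusted p of 0.05 (nr1d2a higher, nr1d4b and bhlhe40 lower), against 0.665% of all tested genes, 0.555% higher and 0.109% lower. Since this contrast chose the members, nothing is read from those counts.

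**Figure D1:**
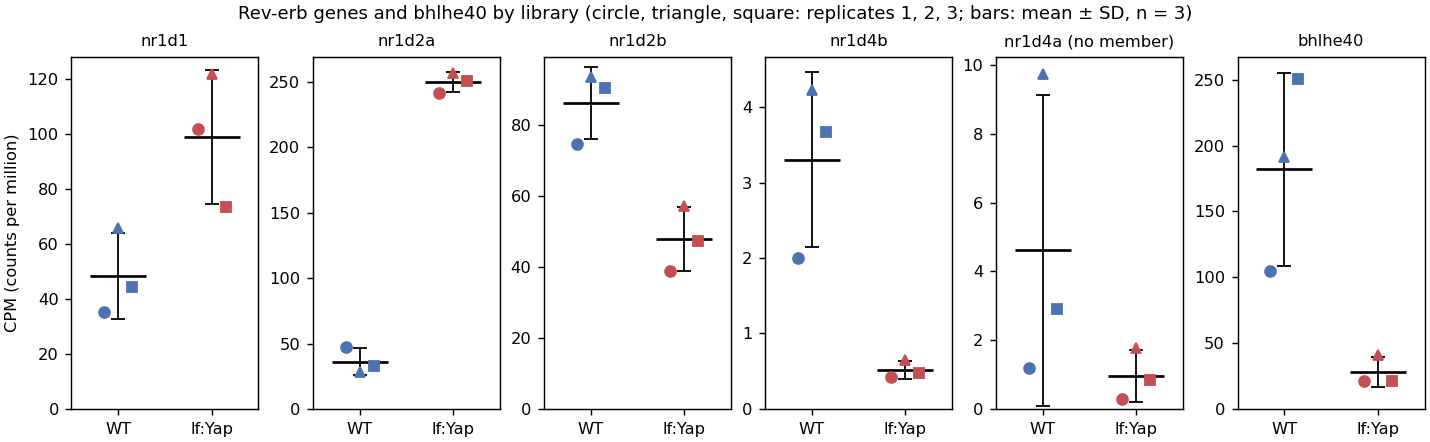
Levels of the 5 members and of nr1d4a in each library, in CPM on linear axes that start at 0, each gene on its own scale. Blue points are WT and red points lf:Yap, circle, triangle and square are replicates 1, 2 and 3, and bars show the mean ± SD of 3 libraries. The groups lie apart for every member but overlap for nr1d4a.

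The Rev-erb alpha gene nr1d1 (listed as NR1D1, ENSDARG00000033160) read 35.2, 65.8 and 44.4 CPM in WT replicates 1 to 3 and 102, 122 and 73.3 CPM in the lf:Yap replicates. The groups were close, since the lowest lf:Yap library, replicate 3, was 1.12 times the highest WT library, replicate 2. The log2 fold change was 1.03 ± 0.30 (SE), with means of 48.4 ± 15.7 and 99.0 ± 24.4 CPM (SD, n = 3 each).

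nr1d2a (ENSDARG00000003820), a gene for Rev-erb beta, stood at 47.7, 27.9 and 32.7 CPM in WT and at 242, 257 and 251 CPM in lf:Yap. Every lf:Yap library was at least 5.06 times the highest WT library. The mean went from 36.1 ± 10.3 to 249.7 ± 7.65 CPM (SD, n = 3 each), a 6.91-fold difference (log2 fold change 2.79 ± 0.25, SE). The lf:Yap libraries differed among themselves by a factor of only 1.06 from lowest to highest, against 1.71 in WT. Their SD of log2 CPM was 0.0443, and 2.54% of 10011 genes with a mean of at least 5 CPM and a read in every library had a smaller one in lf:Yap (median 0.267). In WT the SD of log2 CPM of nr1d2a was 0.397, near the median of 0.322 of those genes.

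The second nr1d2 gene (symbol NR1D2, ENSDARG00000009594) is called nr1d2b here, because RefSeq names 2 nr1d2 genes and the other symbol is taken. It is the paralog of nr1d2a and went the other way. Its levels were 74.6, 93.4 and 90.4 CPM in WT and 39.0, 57.2 and 47.3 CPM in lf:Yap. The lowest WT library was 1.30 times the highest lf:Yap library. The log2 fold change was -0.85 ± 0.22 (SE), between means of 86.1 ± 10.1 and 47.8 ± 9.12 CPM (SD, n = 3 each).

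The ratio of these paralogs can be taken within each library, where depth and scaling cancel. It cannot show which paralog moved, and it rests on the values that chose the members. The count of nr1d2a divided by that of nr1d2b was 0.640, 0.299 and 0.362 in the WT libraries and 6.20, 4.49 and 5.29 in the lf:Yap libraries. These are ratios of reads, not corrected for transcript length, so they are compared between libraries and not read as which transcript was more abundant.

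nr1d4b (ENSDARG00000059370), of an nr1d branch that mammals lack, was the least abundant member in reads, with 159, 379 and 317 counts in WT and 35, 47 and 34 in lf:Yap. In CPM these were 2.0, 4.23 and 3.67 in WT and 0.426, 0.647 and 0.471 in lf:Yap. The lowest WT library was 3.10 times the highest lf:Yap library. The log2 fold change was -2.68 ± 0.40 (SE), or 6.40-fold lower. In the RefSeq annotation of assembly GRCz12tu, nr1d4b is the only member that overlaps another gene, rargb, a retinoic acid receptor gene. The strand setting of the counting is not given in the sources used here, so its reads may be partly shared. The 2 IDs with the symbol RARG, ENSDARG00000034117 and ENSDARG00000054003, had log2 differences of -0.62 ± 0.40 and 0.01 ± 0.27 (SE), with overlapping groups for both.

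The paralog nr1d4a (ENSDARG00000031161), which is not among the members, had the same sign but a wide spread. It stood at 1.2, 9.76 and 2.91 CPM in WT and at 0.292, 1.78 and 0.832 CPM in lf:Yap. The groups overlapped, and the difference did not pass (log2 difference -2.26 ± 0.90, SE; adjusted p = 0.407, edgeR).

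Put together, the 5 nr1d genes gave more reads in lf:Yap, and most of those came from nr1d2a. Their summed level was 161, 201 and 174 CPM in WT and 383, 438 and 373 CPM in lf:Yap, a ratio of means of 2.23. nr1d2a held 29.7%, 13.9% and 18.8% of the nr1d reads in the WT libraries and 63.1%, 58.6% and 67.3% in the lf:Yap libraries. nr1d2b held 46.4%, 46.4% and 51.9% in WT and 10.2%, 13% and 12.7% in lf:Yap. The share of nr1d1 overlapped between the groups, at 21.9%, 32.7% and 25.5% in WT and 26.6%, 27.8% and 19.7% in lf:Yap. nr1d4b gave 1.25% to 2.11% of the nr1d reads in WT and 0.111% to 0.148% in lf:Yap.

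**Figure D2:**
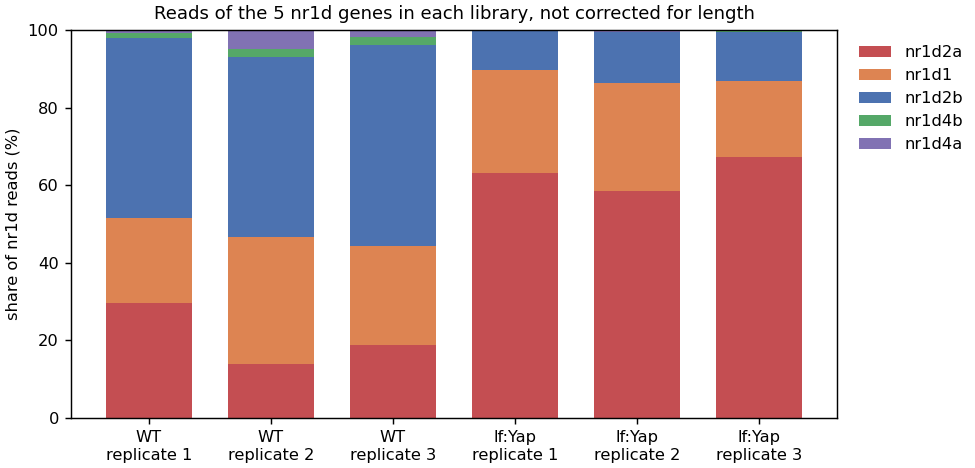
Share of the reads of the 5 nr1d genes that each gene took (percent, vertical axis) in each of the 6 libraries (horizontal axis), without correction for transcript length. nr1d2a, at 13.9% to 29.7% in WT, takes 58.6% to 67.3% in lf:Yap, and nr1d2b, at 46.4% to 51.9% in WT, takes 10.2% to 13%.

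bhlhe40 (listed as BHLHE40, ENSDARG00000004060) stood at 104, 191 and 250.4 CPM in WT and at 20.9, 40.9 and 21.4 CPM in lf:Yap. The WT libraries spread by a factor of 2.40 and the lf:Yap libraries by 1.96, yet the lowest WT library was 2.55 times the highest lf:Yap library. The log2 fold change was -2.72 ± 0.42 (SE), or 6.57-fold lower. Its SD of log2 CPM, 0.646 in WT and 0.551 in lf:Yap, was larger than that of 84.7% and 83.5% of the genes with a mean of at least 5 CPM and a read in every library. Mammalian macrophages and lymphocytes also express this gene. The 9 macrophage marker genes all had differences below 0 and summed to 355 to 538 CPM in WT and 184 to 386 CPM in lf:Yap, so that their sums overlapped. Several of the 9 share the symbol MFAP4 and are not independent markers, and the log2 difference of marco was only -0.03. Their sum was highest in WT replicate 1, where bhlhe40 was lowest among the WT libraries, but the 9 did not share this order. In WT replicates 1 to 3 cd74a stood at 252, 106 and 95.2 CPM and cd74b at 107, 34.2 and 29.1 CPM. The most abundant MFAP4 gene (ENSDARG00000090557) was lowest in WT replicate 1, with 79.1, 111 and 104 CPM in WT and 21.2, 94.8 and 46.9 CPM in lf:Yap. None of the 9 was at 0 in any library, and the part of these markers in the bhlhe40 difference was not tested. The 6 T and B cell markers summed to 10.8 to 16.1 CPM in WT and 18.9 to 22.8 CPM in lf:Yap, in the opposite direction. Most of each sum was ighm alone, at 11.2, 9.43 and 8.91 CPM in WT and 16.5, 19.7 and 17.3 CPM in lf:Yap. Of the 6, 4 had differences above 0 and 2 below, so the sum does not speak for the lymphocyte markers as a group. The paralog bhlhe41 (BHLHE41, ENSDARG00000041691), or Dec2, was at 9.51, 14.0 and 10.7 CPM in WT and 8.83, 8.55 and 4.46 CPM in lf:Yap, with no overlap (log2 difference -0.65 ± 0.31, SE; adjusted p = 0.512, edgeR).

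By size of the log2 fold change, nr1d2a ranked 293, bhlhe40 325, nr1d4b 340, nr1d1 3160 and nr1d2b 4426 among the 24674 tested genes, many of which are of low abundance and poorly measured. Inside the groups the members shared some order. In lf:Yap, replicate 2 was the highest library for all 5 members. In WT, replicate 1 was the lowest for nr1d1, nr1d2b, nr1d4b and bhlhe40 and the highest for nr1d2a. Markers of pancreatic tissue also varied between libraries. The 6 exocrine pancreas markers, digestive enzyme genes such as the trypsin gene prss1, summed to 6026, 227 and 615 CPM in WT and 4343, 30.0 and 6424 CPM in lf:Yap. They were highest in WT replicate 1 and lowest in lf:Yap replicate 2, each within its group. Their sums overlapped between the groups, and their part in the order of the libraries was not tested.

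Those genes beside the members in RefSeq order (GRCz12tu) that could be matched to the count table had overlapping groups. Among the 20 nearest coding genes, chosen by place after the members' values were known, 10 matched exactly 1 gene ID. The log2 differences of these 10 ran from -0.45 to 0.62, and the groups overlapped for each. Overlap is common, since groups lay apart for only 17.6% of all tested genes. nr1d4b had no neighbour among the 10, and bhlhe40 had only setmar, so little is known of the surroundings of these members. THRB (ENSDARG00000021163), the thyroid hormone receptor beta gene next to nr1d2b, stood at 39.7, 35.3 and 34.0 CPM in WT and 37.4, 31.4 and 35.9 CPM in lf:Yap. ube2e2 (ENSDARG00000034670), next to nr1d2a, stood at 5.36, 6.49 and 3.54 CPM in WT and 7.11, 6.09 and 5.81 CPM in lf:Yap.

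The genes whose profile over the 6 libraries was most like that of a member were found by the root mean square (RMS) difference of log2(CPM + 2), each profile centred on its own mean. The search covered 7902 genes with a symbol and a mean of at least 5 CPM. These profiles hold the WT against lf:Yap difference that chose the members, so genes with a like difference on this scale come out near. The nearest genes are a description only. Nearest to nr1d2a were MYL9 (ENSDARG00000008030), a myosin light chain gene, mcl1b (ENSDARG00000008363), of the Bcl2 family of survival proteins, and MAF (ENSDARG00000076520), a bZIP transcription factor gene, at RMS differences of 0.15, 0.24 and 0.25. MYL9 stood at 41.6, 31.8 and 35.0 CPM in WT and 282, 309 and 249.8 CPM in lf:Yap.

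Nearest to nr1d1 were ELOVL2 (ENSDARG00000045414), a fatty acid elongase gene, RRAS2 (ENSDARG00000036252), a small GTPase gene, and DSE (ENSDARG00000017988), a dermatan sulfate epimerase gene, at RMS differences of 0.14, 0.17 and 0.17. ELOVL2 read 35.7, 65.7 and 58.7 CPM in WT and 104, 122 and 73.0 CPM in lf:Yap, so that lf:Yap replicate 3 was again the lowest of its group. Nearest to nr1d2b were ftr23 (ENSDARG00000067985), HDC (ENSDARG00000075454), the histamine-forming decarboxylase gene, and CARTPT (ENSDARG00000070930), a neuropeptide gene, at 0.08, 0.11 and 0.12.

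For nr1d4b, whose low levels are flattened by the added 2 CPM, the nearest genes were mb (ENSDARG00000031952), which encodes myoglobin, HDC again, and slc27a2a (ENSDARG00000036237), a fatty acid transport gene, at 0.11, 0.14 and 0.15. bhlhe40 had no neighbour as close. The Pim-related kinase genes pimr171 (ENSDARG00000095461) and pimr170 (ENSDARG00000074873) and si:ch211-188c16.1 (ENSDARG00000077288) followed at 0.27, 0.33 and 0.35. pimr171 read 10.8, 17.7 and 23.2 CPM in WT and 2.03, 3.0 and 0.901 CPM in lf:Yap, with WT replicate 3 the highest as for bhlhe40.

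Of 40 other genes in 5 clock lists, all tested, 1 rose and 0 fell by edgeR (adjusted over all tested genes), or 2.5% against 0.665% of all tested genes. With an unadjusted p below 0.05 there were 9 higher and 2 lower (edgeR), or 27.5% against 11.3% of all tested genes. DESeq2 called 5 higher and 0 lower and limma-voom 1 higher. Over all genes DESeq2 called 673 higher and 390 lower, against 137 and 27 by edgeR and 156 and 30 by limma-voom. The DESeq2 counts here and below stand against that larger number. The median log2 difference was 0.13, against -0.03 over all tested genes. Groups did not overlap for 12 of the 40, or 30%, against 17.6% of all tested genes. The gene that rose was usp2b (ENSDARG00000074120), which encodes a ubiquitin-specific protease; mammalian Usp2 acts on clock proteins. It went from 7.63, 9.37 and 9.18 CPM in WT to 42.2, 34.2 and 39.4 CPM in lf:Yap (log2 fold change 2.15 ± 0.20, SE; adjusted p = 0.00963, edgeR). Its adjusted p was 0.0501 without WT replicate 3 and 0.0669 with the replicate number as a block, within a range of 5.39e-19 to 0.0669 over 13 alternatives (log2 fold changes of 2.07 to 2.23). Besides usp2b, DESeq2 called rorab, PER2, cry3b and nfil3-6 higher.

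**Figure D3:**
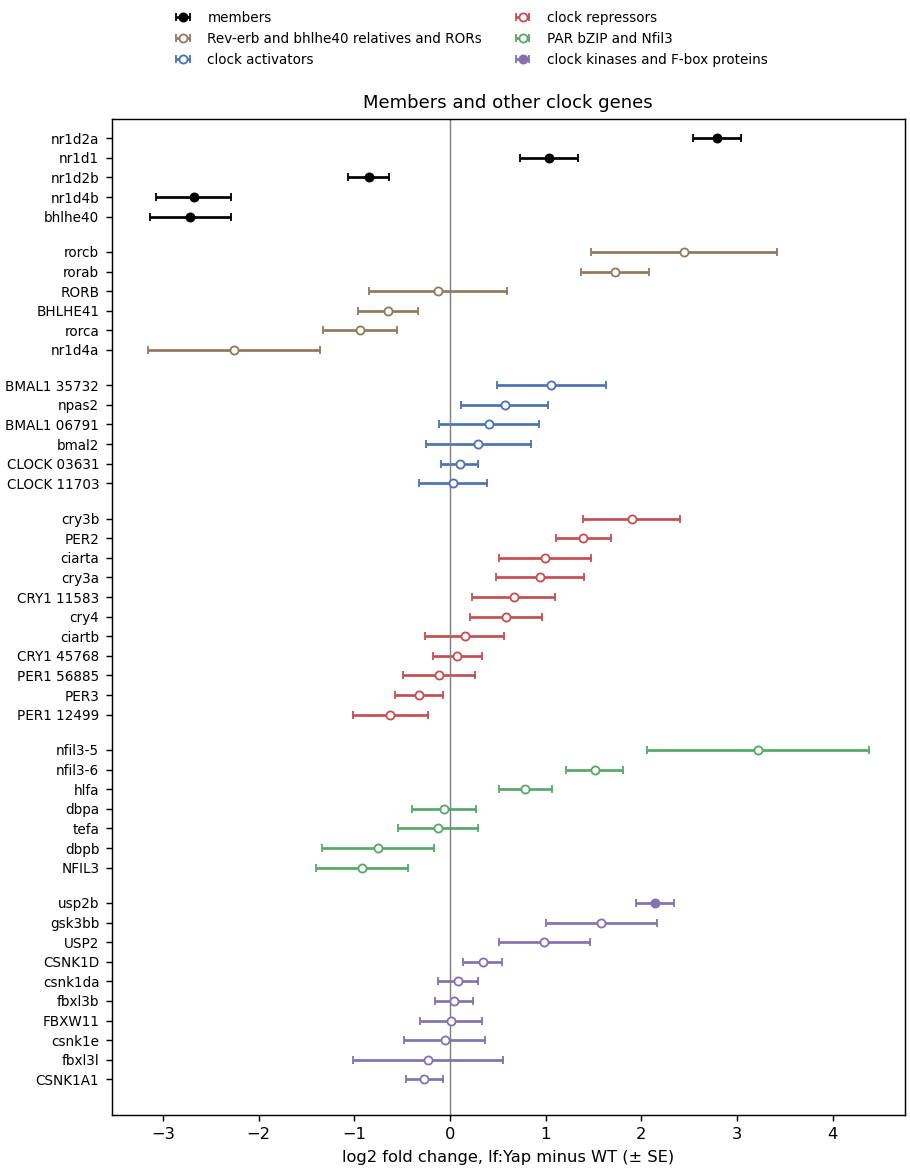
Log2 fold change of lf:Yap minus WT (horizontal axis, ± SE, 3 libraries a group) for the 5 members (black, shown as a description) and for 40 other clock genes in 5 lists, with the end of the gene ID where a symbol occurs more than once. Of the coloured points, only usp2b is filled, which marks an adjusted p under 0.05 by edgeR, and the members nr1d2a, nr1d4b and bhlhe40 lie far from 0 on opposite sides.

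ROR genes encode the activators that compete with Rev-erb. Of the 6 genes in the list of relatives and RORs 0 passed by edgeR or limma-voom, 1 was higher by DESeq2, and edgeR gave 2 higher and 2 lower with an unadjusted p below 0.05. rorab (ENSDARG00000001910), an ROR alpha gene, stood at 5.48, 6.13 and 5.44 CPM in WT and 19.8, 26.6 and 9.99 CPM in lf:Yap, with no overlap (log2 difference 1.72 ± 0.36, SE; adjusted p = 0.116, edgeR, and 0.0465 without lf:Yap replicate 3). The ROR gamma gene rorca (ENSDARG00000057231) read 22.7, 23.8 and 36.8 CPM in WT and 9.36, 11.2 and 22.9 CPM in lf:Yap. Its paralog rorcb (ENSDARG00000017780) read 2.76, 1.60 and 0.857 CPM in WT and 5.72, 1.17 and 21.6 CPM in lf:Yap, with lf:Yap replicate 3 far above the rest. RORB (ENSDARG00000033498) was at 0.0551 to 0.333 CPM over the 6 libraries.

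Clock activator genes, Bmal1 above all, are targets of Rev-erb repression in mammals. Of 6 tested 0 passed by edgeR, DESeq2 or limma-voom, and edgeR gave 0 with an unadjusted p below 0.05. The median log2 difference was 0.35. One BMAL1 gene (ENSDARG00000006791) read 6.91, 5.09 and 2.72 CPM in WT and 3.74, 4.24 and 11.5 CPM in lf:Yap. The other (ENSDARG00000035732) read 2.72, 3.78 and 1.32 CPM in WT and 3.02, 3.55 and 9.78 CPM in lf:Yap. For both, lf:Yap replicate 3 was the highest of the 6 libraries, and the other lf:Yap libraries lay within the WT range. The CLOCK genes ENSDARG00000003631 and ENSDARG00000011703 had log2 differences of 0.10 ± 0.19 and 0.03 ± 0.36 (SE), npas2 (ENSDARG00000016536) one of 0.57 ± 0.46 and bmal2 (ENSDARG00000041381) one of 0.30 ± 0.55.

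Among the 11 clock repressors 0 passed by edgeR or limma-voom, edgeR gave 2 higher with an unadjusted p below 0.05, and DESeq2 called 2 higher. The median log2 difference was 0.59. PER2 (ENSDARG00000034503), a light-induced period gene in zebrafish, read 14.4, 15.2 and 16.4 CPM in WT and 57.6, 33.2 and 30.1 CPM in lf:Yap, with no overlap (log2 difference 1.39 ± 0.29, SE; adjusted p = 0.112, edgeR). cry3b (ENSDARG00000091131), a cryptochrome gene, read 27.1, 24.6 and 22.9 CPM in WT and 43.7, 174 and 60.8 CPM in lf:Yap (adjusted p = 0.208, edgeR). The other repressors overlapped between groups. Their log2 differences were 0.94 for cry3a (ENSDARG00000069074), 0.996 for ciarta (ENSDARG00000058094), 0.67 and 0.08 for CRY1 (ENSDARG00000011583 and ENSDARG00000045768), 0.59 for cry4 (ENSDARG00000011890) and 0.16 for ciartb (ENSDARG00000088171). They were -0.62 and -0.11 for PER1 (ENSDARG00000012499 and ENSDARG00000056885) and -0.33 for PER3 (ENSDARG00000010519).

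In the list of PAR bZIP genes, activators at D-boxes, and Nfil3 genes, their repressor relatives, 0 of 7 passed by edgeR or limma-voom. edgeR gave 3 higher with an unadjusted p below 0.05, and DESeq2 called 1 higher. The genes named from this list were chosen after their values were seen. nfil3-6 (ENSDARG00000087188) read 158, 231 and 111 CPM in WT and 429, 573 and 428 CPM in lf:Yap (adjusted p = 0.100, edgeR). dbpb (ENSDARG00000057652) read 51.4, 49.7 and 43.5 CPM in WT and 37.7, 41.3 and 6.71 CPM in lf:Yap. Its lowest value by far was in lf:Yap replicate 3. nfil3-5 (ENSDARG00000094965) read 1.19, 1.45 and 0.822 CPM in WT and 1.51, 1.80 and 28.9 CPM in lf:Yap, where the same library was the highest (adjusted p = 0.356, edgeR). hlfa (ENSDARG00000074752) read 46.1, 29.8 and 49.7 CPM in WT and 85.4, 76.6 and 55.1 CPM in lf:Yap, with no overlap (adjusted p = 0.336, edgeR).

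lf:Yap replicate 3 held the highest BMAL1 levels and the lowest dbpb level of the 6 libraries. It was the lowest of its group for 19 of the 40 clock genes and the highest for 11. Over all tested genes it was the lowest for 33.2% and the highest for 34.5%. In WT, replicate 3 was the lowest of its group for 25 of the 40 and replicate 2 the highest for 21. These were 62.5% and 52.5% of the clock genes, against 35.8% and 30.6% of all tested genes. nr1d2a did not set lf:Yap replicate 3 apart, at 251 CPM there and at 242 and 257 CPM in the other lf:Yap libraries. nr1d1 did have its lowest lf:Yap value in that replicate. Without lf:Yap replicate 3 the log2 fold changes were 2.79 for nr1d2a, 1.21 for nr1d1, -0.84 for nr1d2b, -2.62 for nr1d4b and -2.56 for bhlhe40. As the labels give no hour of dissection, a difference in hour between the groups and the genotype cannot be told apart.

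**Figure D4:**
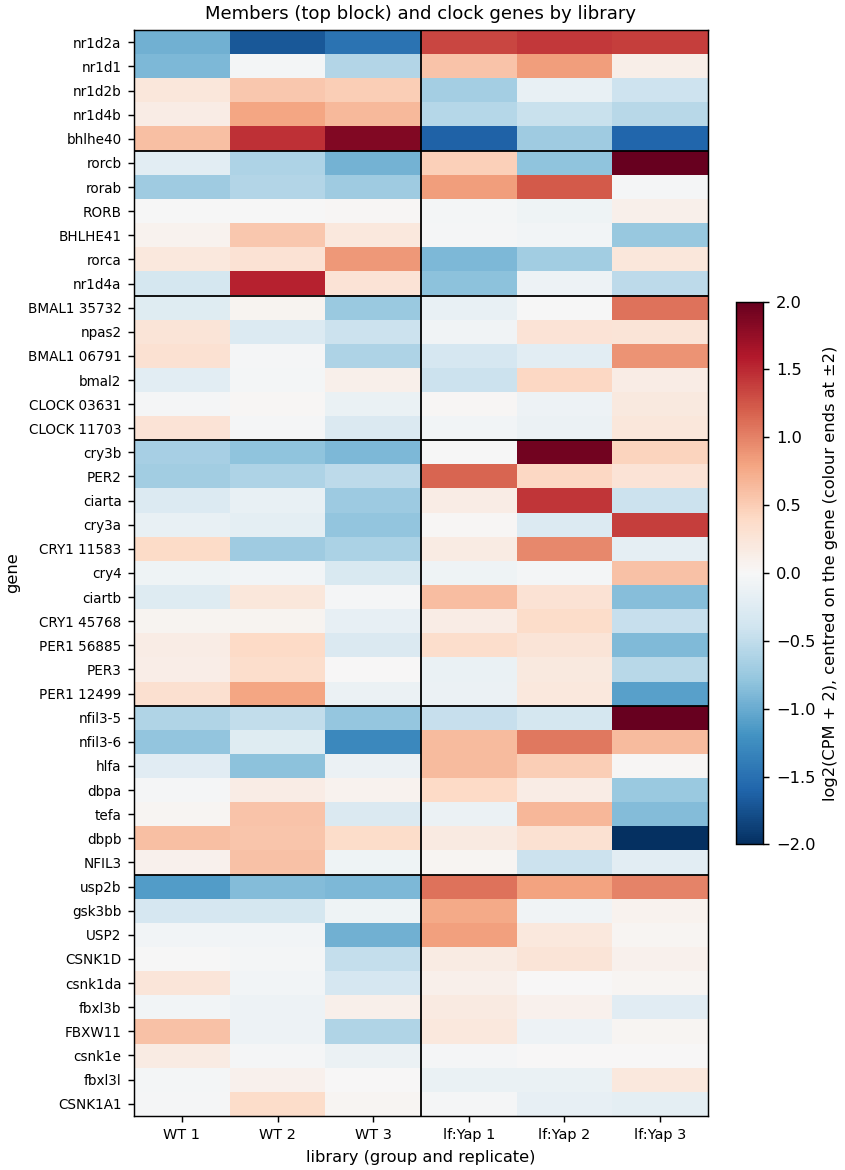
Levels of the 5 members (top block) and of 40 clock genes in 5 lists (rows, blocks in the order of the plot of fold changes) in the 6 libraries (columns), as log2(CPM + 2) centred on each gene's mean, with colours ending at 2 above or below. nr1d2a and usp2b are even across the lf:Yap libraries, whereas the BMAL1 genes, nfil3-5 and dbpb single out lf:Yap replicate 3. nfil3-5 and dbpb were picked after their values were seen.

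Rev-erb acts with corepressors, and enzymes make and break down heme, its ligand. Of 12 corepressor and heme genes 0 passed by edgeR, DESeq2 or limma-voom, and edgeR gave 1 lower with an unadjusted p below 0.05. Examples chosen after their values were seen are hdac3 (ENSDARG00000037514), with a log2 difference of -0.04 ± 0.23 (SE), NCOR1 (ENSDARG00000035285), with -0.37 ± 0.39, and ALAS1 (ENSDARG00000021059), for the first enzyme of heme synthesis, with -0.62 ± 0.26. Among 23 genes known as Rev-erb targets in mammals, which include 5 of the 6 activators above (not bmal2), 0 passed by edgeR or limma-voom. It also shares both CRY1 genes, rorca, rorcb, NFIL3, nfil3-5 and nfil3-6 with the clock lists, and ALAS1 with the heme list. With an unadjusted p below 0.05 there were 7 higher and 2 lower (edgeR), where the share over all tested genes was 11.3%. Of these, rorcb, nfil3-5 and nfil3-6 (higher) and rorca (lower) were already counted in the clock lists. DESeq2 called 5 higher, namely nfil3-6, LPL, PCK1, G6PC1 and g6pc1a.1. The median log2 difference of that list was 0.41. The example given next was chosen after its values were seen. PCK1 (ENSDARG00000013522), for a gluconeogenic enzyme, read 810.0, 281 and 86.3 CPM in WT and 3553, 1956 and 1010.1 CPM in lf:Yap. The lowest lf:Yap library was above the highest WT library, and the spread inside each group was wide (log2 difference 2.47 ± 0.82, SE; adjusted p = 0.313, edgeR).

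In mammals bhlhe40 is known as a hypoxia response gene. In the list of other hypoxia response genes, 1 of 18 rose and 0 fell by edgeR, where 0.665% of all tested genes passed. DESeq2 called 1 higher and 1 lower and limma-voom 1 higher, and the median was 0.02. The gene that rose was PFKFB4 (ENSDARG00000029075), for a regulator of glycolysis, from 5.70, 3.54 and 3.47 CPM to 19.3, 37.8 and 19.1 CPM (adjusted p = 0.0377 by edgeR, log2 fold change 2.58 ± 0.37, SE). It passed in 0 of the 6 fits that left out 1 library, with adjusted p-values up to 0.185 over its 13 alternatives. bhlhe40, at -2.72, lay on the other side of 0, as did 8 of the 18 list genes, while 10 lay above 0. With an unadjusted p below 0.05 there were 3 higher and 2 lower (edgeR), where the share over all tested genes was 11.3%. Of 10 light-induced genes 0 passed by edgeR or limma-voom, and the median was 0.05. PER2 was the 1 gene higher with an unadjusted p below 0.05 (edgeR) and by DESeq2.

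In the corticoid response list, 3 of 9 genes rose and 0 fell by edgeR, where 0.665% of all tested genes passed. DESeq2 and limma-voom each called 4 higher. This list was chosen with the change of FKBP5 known, so its count is not independent evidence. KLF9 (ENSDARG00000068194), a repressor tied to both glucocorticoids and the clock, read 25.8, 44.1 and 25.2 CPM in WT and 221, 244 and 235 CPM in lf:Yap, with no overlap. FKBP5 (ENSDARG00000028396), whose product binds Hsp90 in steroid receptor complexes, and HSD11B2 (ENSDARG00000001975), which inactivates cortisol, rose by 4.26 ± 0.56 and 2.34 ± 0.22 (log2, SE). The adjusted p-values of KLF9, FKBP5 and HSD11B2 by edgeR were 0.00985, 0.0274 and 0.00938. KLF9 and HSD11B2 passed in 5 of the 6 fits that left out 1 library, and without WT replicate 3 each had an adjusted p above the threshold. FKBP5 passed in 2 of them, those without WT replicate 1 or 2. None of these 3 genes passed with the replicate number as a block (edgeR adjusted p of 0.0536 for KLF9 and HSD11B2 and 0.0603 for FKBP5). Over all alternatives the highest adjusted p of FKBP5 was 0.131, by edgeR without WT replicate 3.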

How the data were processed

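The deposited table gives raw counts, integers per Ensembl gene and library; its values show no sign of scaling by the authors. STAR 2.3.0e and HTSeq 0.6.0 are named in the submitters' processing notes; for genome build, annotation and strand setting, the sources used here name none. Groups and replicate numbers come from the sample titles. Symbols matched 17999 of 25640 IDs, and list entries were matched regardless of case or to the capital symbol of their family. edgeR 4.0.16 in R 4.3.3 was run on all libraries (filterByExpr kept 24674 genes, TMM factors of 0.939 to 1.11, robust quasi-likelihood test, two-sided, Benjamini-Hochberg over all tested genes at 0.05) and checked on simulated data. Most changes of 2-fold set into those data were missed, so a gene that did not pass is not shown to be unchanged. The SE is the log2 fold change divided by the square root of F. With 3 against 3 libraries an exact permutation p cannot go below 0.1, so none was used. As no label says that libraries came from separate fish, p-values reflect only the spread between libraries, possibly technical. Replicates differed far beyond sampling noise (197 to 355 in chi-square units per degree of freedom). Members, lists and the rule for named genes were chosen with earlier results of these data known. That rule took the members, their 3 nearest profiles, list genes that passed, and the relatives, activators and repressors. Genes outside it were named with their values known. Alternatives were DESeq2 1.42.0, limma-voom (limma 3.58.1), other scalings and filters, a replicate block and leaving out each library. Promoter motifs were not analysed here.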

Additional observations from a re-analysis of the deposited data

How the results depend on the processing

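The log2 fold changes of the 5 members kept their sign and moved by less than the spread between replicates in all 64 combinations of member and alternative. All alternatives reuse the same libraries, in which the groups of each member lie apart. The kept sign was therefore largely fixed in advance. Leaving out 1 of 3 libraries can move a group mean by only part of the spread inside that group. The small shifts were thus largely fixed too, and neither is independent evidence. Leaving out 1 library gave 2.63 to 3.06 for nr1d2a, 0.86 to 1.32 for nr1d1, -0.99 to -0.72 for nr1d2b, -2.92 to -2.45 for nr1d4b and -3.10 to -2.42 for bhlhe40. nr1d4b has no value under the filter of 5 CPM in 3 libraries, which removed it. As this contrast chose the members, their adjusted p-values show only how calls move with the setting and are not read as tests. The place of nr1d2a, nr1d4b and bhlhe40 under an adjusted p of 0.05 (edgeR) was less steady. nr1d2a was at 0.0543 without WT replicate 3. Among the 6 fits without 1 library, nr1d4b and bhlhe40 were under it only without WT replicate 1. With the replicate block all 3 were above it (0.0560, 0.101 and 0.0927 in that order). bhlhe40 was at 0.0514 with no filter, and nr1d4b at 0.0595 by limma-voom. In the other direction, nr1d2b came under 0.05 by DESeq2, with an adjusted p of 0.0263. The number of changed genes was 164, and it was 1063 by DESeq2, 17 with the replicate block and 32 to 94 without 1 library. The number of changed genes in the clock lists was 1, and it was 5 by DESeq2, 0 with the replicate block and 0 to 2 without 1 library. Same-numbered WT and lf:Yap libraries had correlations of 0.22, 0.23 and -0.30 between their deviations from the group means. With so few libraries in a group these values cannot decide if the numbers pair the samples, and the labels do not say. With a pseudocount of 5 in place of 2, 4 of the 15 nearest genes were shared. The other motif window was not run, as no promoter sequences were used. At these depths, counting error is small beside the spread between libraries, except for nr1d4b in lf:Yap, with 34 to 47 reads.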
